A study of Mus musculus with 11 samples.

Results

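A set of 8 transcription factor genes that mark neurons of the forebrain was followed among RNA fragments recovered with FMRP from the brain of mice at postnatal day 13. FMRP is an RNA-binding protein whose loss causes Fragile X syndrome. The set holds 8 of the 30986 gene symbols in the count table. Of these, 3 are factors of hippocampal neurons (Zbtb20, Prox1 and Nr3c2) and 5 are factors of cortical projection neurons (Bcl11b, Mef2c, Foxp1, Cux1 and Cux2). The genes were chosen on their levels in cerebellum, cortex and hippocampus in these same libraries. Their differences between regions are therefore given as a description, without a test, and support nothing further.

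Of 11 libraries, 2 were labelled cerebellum, 3 cortex and 5 hippocampus, and 1 further library carried labels that conflict over cortex and hippocampus and was put in no region. All came from tissue of the same age that was ground frozen, crosslinked with ultraviolet light and subjected to immunoprecipitation of FMRP. The labels name no strain, genotype, treatment of the animals or individual animal, so the spread between libraries may be technical. Hippocampus 1 and 2 agreed within sampling noise and were summed as 1 sample, hippocampus 1+2, which left 9 samples. Total counts ran from 11898 in cortex 3 to 197382 in cerebellum 2. Cortex 3, hippocampus 3 and hippocampus 4 stood apart, with 12.2 to 12.6% of their counts on symbols of predicted genes (Gm followed by a number), against 3.1 to 7.49% in the other 6 samples. Region means are therefore also given without these 3 samples. CPM are counts per 1000000 counts of the sample. No input library was analysed here, so a difference in the amount of an mRNA and a difference in its binding cannot be told apart, nor can fewer cells of a type and less RNA per cell.

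Neurons of the hippocampus and cortex take their identity from combinations of transcription factors that are switched on as the cells leave the cell cycle and are kept into adulthood. Zbtb20, Prox1 and Nr3c2 are known from pyramidal cells and dentate granule cells of the hippocampus. Bcl11b marks deep-layer neurons that project below the cortex, Cux1 and Cux2 mark the upper layers, and Mef2c and Foxp1 are shared by several layers. FMRP binds mRNAs of many neuronal genes and slows their translation, and short motifs that contain GGA have been reported for it.

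The coding sequences of the members are shown first, because FMRP fragments fall largely within the coding part of its targets. Counts per gene do not say which part of an mRNA was bound. The motifs AGGA and TGGA were counted on the sense strand only, overlaps included, and are given per kilobase of coding sequence in GENCODE M21 on GRCm38. Nr3c2 had 15.9, Cux2 14.3, Cux1 13.2, Prox1 13.1, Bcl11b 12.8, Mef2c 11.0, Foxp1 8.96 and Zbtb20 7.19 of them. All 8 lay below the median of 16.02 over the 1639 tested rows with a complete coding sequence. Zbtb20 was at percentile 0.793 of those rows and Nr3c2, the richest of the 8, at percentile 48.4. The 90 coding bases with the most matches are printed for the member richest in the motifs (Nr3c2), the richest of the cortical upper-layer factors (Cux2) and the poorest member (Zbtb20), 5′ to 3′ on the gene's strand, with AGGA and TGGA in capitals:
Nr3c2: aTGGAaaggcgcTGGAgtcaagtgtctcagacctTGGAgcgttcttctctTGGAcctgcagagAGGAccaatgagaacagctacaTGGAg
Cux2: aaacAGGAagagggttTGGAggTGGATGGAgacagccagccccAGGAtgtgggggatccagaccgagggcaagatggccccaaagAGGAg
Zbtb20: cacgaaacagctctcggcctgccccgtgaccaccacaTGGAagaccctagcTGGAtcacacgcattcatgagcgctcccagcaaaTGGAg
The stretches of Nr3c2 (chr8:76908314-76908403, plus strand, exon 1 of 8) and Cux2 (chr5:121861063-121861152, minus strand, exon 21 of 21) held 6 each, a number that 42% of the 1639 coding sequences reach in their densest 90 bases. That of Zbtb20 (chr16:43609935-43610024, plus strand, exon 6 of 7) held 3, which 98.4% reach, and the densest stretches of Prox1 and Foxp1 also held 3. Of the 8 members, Bcl11b had the densest stretch, which is not printed. It held 8, a number that 10% reach.

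The 8 members together took between 0.143 and 0.293% of the counts of a sample. All 8 passed the filter on low counts that left 1720 rows for the fit. With cortex and hippocampus as forebrain, edgeR's quasi-likelihood test called 7.67% of these rows between cerebellum and forebrain at an adjusted p under 0.05, 4.59% between cerebellum and cortex, 6.4% between cerebellum and hippocampus and 0.0% between cortex and hippocampus. The last share stands for 0 of 1720 rows, with 68 at an unadjusted p under 0.05 and 1 row called by DESeq2. Cortex and hippocampus are thus not separated for any row by the main test, and the values of the members in these regions are to be read with that in view.

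The levels did not follow the label of the set in every member. By mean CPM Zbtb20 was about as high in cerebellum as in hippocampus, and Cux1 was highest in cerebellum. The other 6 were lower in cerebellum than in at least 1 forebrain region, by a mean CPM that was between 2.22 times lower (Cux2 against cortex) and 12.8 times lower (Nr3c2 against hippocampus).

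**Figure D1:**
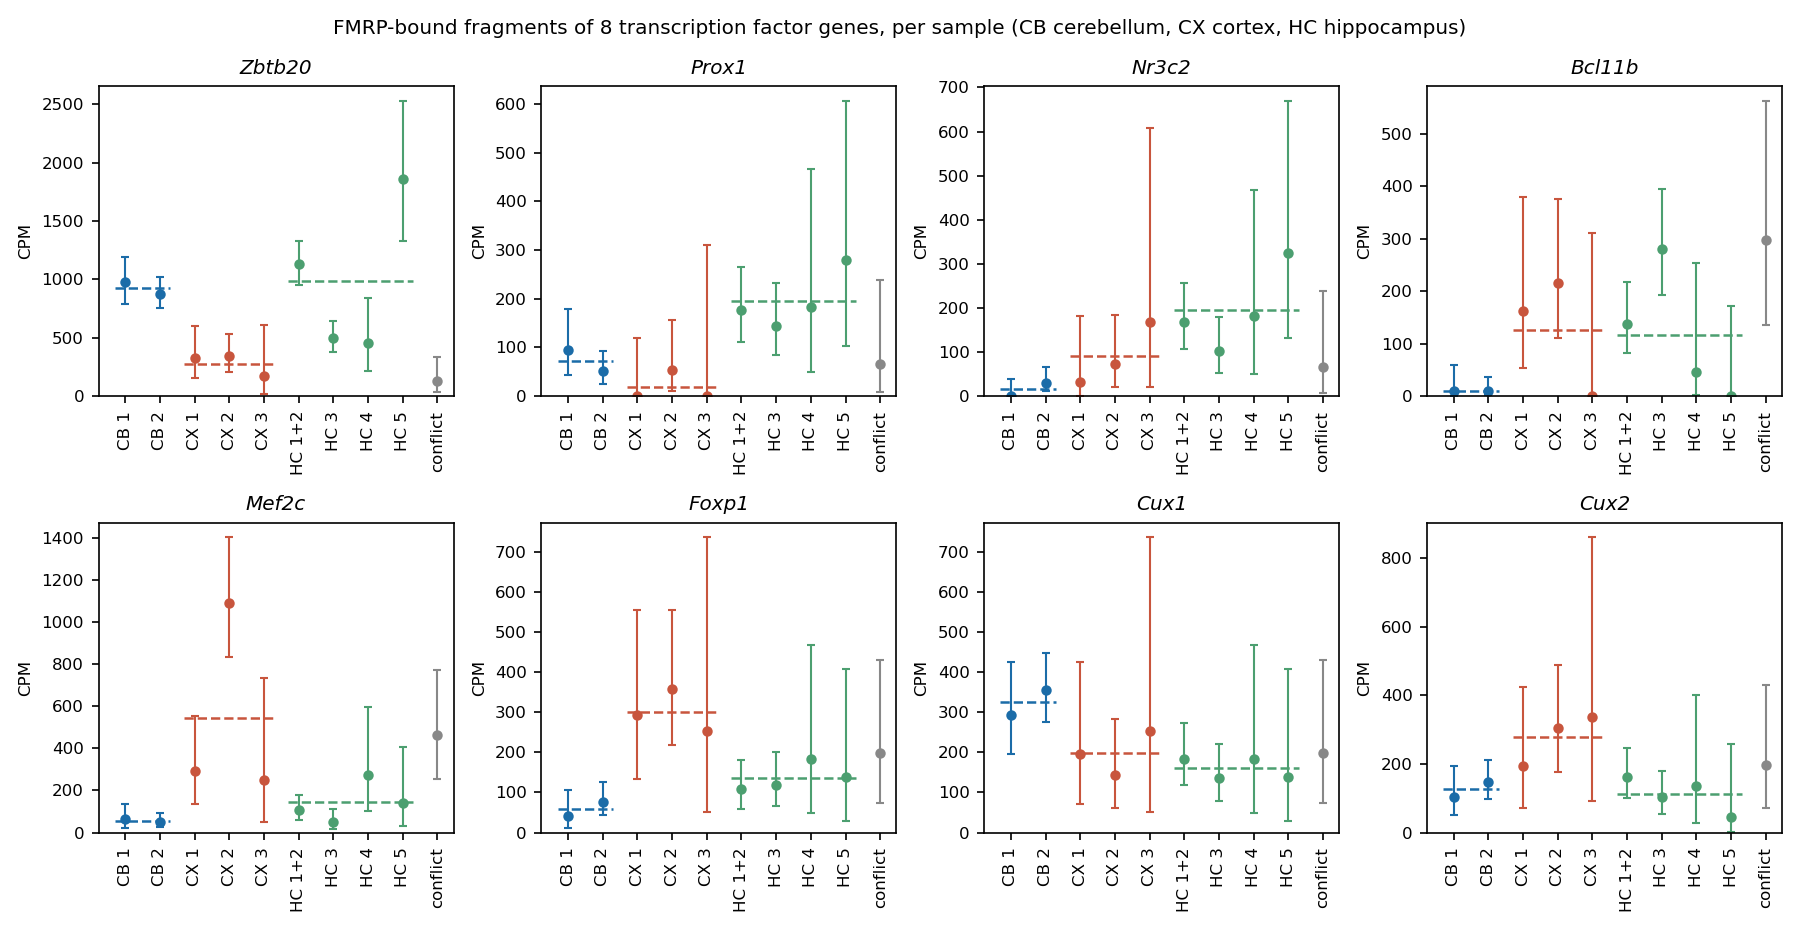
CPM of each of the 8 genes (vertical axes, linear, from 0) in every sample of cerebellum (CB), cortex (CX) and hippocampus (HC) and in the library with conflicting labels. Points are samples, bars are exact 95% Poisson intervals for counting error only, and dashed lines are region means; Foxp1 runs from 42 to 76 CPM in cerebellum and from 252 to 359 CPM in cortex, and Cux1 is highest in the cerebellum samples.

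Zbtb20 is a zinc finger repressor that sets the fate of hippocampal pyramidal neurons and is also known from astrocytes and cerebellar granule cells. It was the most abundant of the 8 by mean CPM in cerebellum and hippocampus. In cortex Mef2c (546 CPM) and Foxp1 (301 CPM) were higher, and Cux2 (279 CPM) was about level. Zbtb20 stood at 974 and 876 CPM in cerebellum, at 326, 341 and 168 CPM in cortex, and at 1128, 494, 456 and 1858 CPM in hippocampus (samples 1+2, 3, 4 and 5). Every cortex sample lay below every sample of the other regions, while cerebellum and hippocampus overlapped. Mean CPM was 925 ± 69.2 in cerebellum (SD, n = 2), 278 ± 95.5 in cortex (SD, n = 3) and 984 ± 659 in hippocampus (SD, n = 4). The hippocampal mean was 3.54 times that of cortex, and without the 3 samples that stood apart the means were 1493 and 333 CPM. Hippocampus 5 ranked it 33rd among all rows and hippocampus 1+2 46th, while hippocampus 3 and 4 ranked it 62nd and 82nd at 494 and 456 CPM. The fitted log2 fold change was 1.02 (SE 0.50) for cerebellum over forebrain and -2.03 (SE 0.51) for cortex over hippocampus. Per length it stood at 30.1, 9.05 and 32.0 CPM per exonic kilobase in cerebellum, cortex and hippocampus, against medians of tested rows of 22.0, 24.7 and 21.6. The gene spans chr16:42875881-43642602 on the plus strand and its exons cover 30730 bases, the most of the 8, so its level is better compared with other genes per length. Both antisense genes inside it that have rows of their own, Gm15713 and Gm19522, had 3 and 9 counts in all.

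Prox1, the homeodomain factor that maintains dentate granule cells and is also found in some interneurons, was highest in hippocampus. It stood at 94.3 and 50.7 CPM in cerebellum, at 0, 53.8 and 0 CPM in cortex and at 177, 145, 182 and 279 CPM in hippocampus. All 4 hippocampus samples lay above all others, while cerebellum and cortex overlapped. The cortex values rest on 3 counts, all from cortex 2, and a count of 0 allows up to 97.7 CPM in cortex 1 and up to 252 CPM in cortex 3. Cortex 3 was thus too shallow to show a level like that of hippocampus as different. Mean levels were 72.5 ± 30.8 CPM (SD, n = 2), 17.9 ± 31.0 CPM (n = 3) and 196 ± 57.8 CPM (n = 4) in cerebellum, cortex and hippocampus. From summed counts, hippocampus was 5.63 times cortex, with an exact 95% counting interval from 1.82 to 28.2. The fitted value for cortex over hippocampus was -3.17 (SE 0.97) on the log2 scale, and it ran from -2.44 without cortex 1 to -6.97 without cortex 2. The cerebellum over forebrain value was 0.18 (SE 0.79), although the mean CPM of the 7 forebrain samples was 1.65 times that of cerebellum, while the fit averages cortex and hippocampus on the log scale with the title code as a block. It was -0.37 without cerebellum 1 and 2.03 without cortex 2, so it has no settled direction. Prox1 lies at chr1:190118035-190170714 on the minus strand.

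Nr3c2 encodes the mineralocorticoid receptor, a nuclear receptor for corticosteroids that is abundant in hippocampal neurons. Its levels were 0 and 30.4 CPM in cerebellum, 32.6, 71.7 and 168 CPM in cortex and 169, 102, 182 and 325 CPM in hippocampus. Cerebellum lay below both forebrain regions, and cortex and hippocampus overlapped through cortex 3, whose value is 2 counts. Cortex 1, at 1 count, lay just above cerebellum 2, and with library sizes adjusted by TMM, which scales samples by the bulk of their genes, it lay below it, at 25.8 against 30.9 CPM. The means were 15.2 ± 21.5 CPM (SD, n = 2), 90.8 ± 69.8 CPM (n = 3) and 195 ± 93.8 CPM (n = 4). Without the 3 samples that stood apart, cortex was at 52.1 and hippocampus at 247 CPM. The 0 in cerebellum 1 allows up to 31.4 CPM, which is about the level of cerebellum 2. By summed counts, 52 in forebrain and 6 in cerebellum, the ratio of forebrain to cerebellum was 6.52 (2.8 to 18.6). The fitted log2 fold change was -2.23 (SE 1.06) for cerebellum over forebrain, with -1.21 without cerebellum 1, -5.27 without cerebellum 2 and -5.78 without the 3 samples that stood apart. It was -1.77 (SE 0.90) for cortex over hippocampus. The gene spans chr8:76899442-77245012 on the plus strand. Its relative Nr3c1, the glucocorticoid receptor, had 204 ± 37.6, 178 ± 129 and 183 ± 75.6 CPM in cerebellum, cortex and hippocampus.

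Bcl11b, a zinc finger factor of neurons that project from deep cortical layers and also of hippocampal and striatal neurons, had few counts in cerebellum. There it had 1 and 2 counts, or 10.5 and 10.1 CPM. It stood at 163, 215 and 0 CPM in cortex and at 138, 281, 45.6 and 0 CPM in hippocampus. The 5 forebrain samples with any count lay above both cerebellum samples. In cortex 1, cortex 2 and hippocampus 4 depth alone fixed this order, since 1 count is 32.6, 17.9 and 45.6 CPM there. Hippocampus 4 had just 1 count. Cortex 3 and hippocampus 5 had none, which allows up to 252 and 139 CPM. Because of these zeros the regions overlapped. Summed counts gave a ratio of forebrain to cerebellum of 17.3 (5.68 to 85.9), and the means were 10.3 ± 0.243, 126 ± 112 and 116 ± 124 CPM. The fitted log2 fold change of cerebellum over forebrain was -4.98 (SE 0.97). It was -3.53 without cerebellum 2, -5.86 without cortex 1 and -3.67 without the 3 samples that stood apart. Per length its cerebellar level of 1.27 CPM per exonic kilobase stood at percentile 0.12 of tested rows, while cortex and hippocampus were at percentiles 26.1 and 26.5. With 1 and 2 counts in cerebellum, Bcl11b passed the filter (minimum count 10) through forebrain samples alone. The low cerebellar percentile is thus partly set by the filter, and nothing is read from it. The libraries summed as hippocampus 1+2 had 16 and 2 counts, or 194 and 41.9 CPM, a difference that did not pass (exact binomial test on counts, two-sided, p = 0.0263, adjusted over the 8 members 0.211). The order of cortex and hippocampus turned with the scale, since with TMM-adjusted library sizes the means were 101 and 158 CPM. By library totals without the 3 samples that stood apart, the means were 189 CPM in cortex and 69.1 CPM in hippocampus. Hippocampus 3 gave 33 of the 52 hippocampal counts. The gene lies at chr12:107910403-108003602 on the minus strand.

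Mef2c, a MADS-box factor that shapes the excitatory synapses of cortical neurons and is also known from microglia and endothelium, was highest in cortex, where 1 sample stood far above the others. Its levels were 62.9 and 50.7 CPM in cerebellum, 293, 1094 and 252 CPM in cortex and 107, 51.1, 273 and 139 CPM in hippocampus. Cerebellum lay below cortex, but hippocampus overlapped both. Cortex 2 rests on 61 counts, and the cortex mean fell from 546 ± 474 CPM (SD, n = 3) to 273 CPM without it. Cerebellum had 56.8 ± 8.62 CPM (n = 2) and hippocampus 143 ± 94.4 CPM (n = 4). The fit gave -1.33 (SE 0.67) for cerebellum over forebrain and 1.47 (SE 0.54) for cortex over hippocampus, on the log2 scale. Without cortex 2 the second value was 0.79, the lowest when each sample was left out in turn. The gene spans chr13:83504034-83667080 on the plus strand and overlaps no other annotated gene.

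Foxp1, a forkhead repressor of several cortical layers, the striatum and hippocampal pyramidal cells, was the only member whose CPM did not overlap between any of the 3 regions. It stood at 41.9 and 76.0 CPM in cerebellum, at 107, 119, 182 and 139 CPM in hippocampus and at 293, 359 and 252 CPM in cortex. The order was cerebellum, hippocampus and cortex, with means of 58.9 ± 24.1 (SD, n = 2), 137 ± 32.9 (n = 4) and 301 ± 53.7 CPM (n = 3). Of the 1720 tested rows, 1.16% had no overlap between any of the regions. With TMM-adjusted library sizes hippocampus 4 rose to 236 CPM and cortex 1 fell to 232 CPM, so that cortex and hippocampus then overlapped. The fitted log2 fold changes were -1.78 (SE 0.68) for cerebellum over forebrain and 0.97 (SE 0.62) for cortex over hippocampus. Foxp1 lies at chr6:98925338-99522721 on the minus strand.

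Cux1 and Cux2, the cut homeodomain factors of upper-layer neurons, which act on dendrites and spines, differed in where they were high. Cux1 stood at 293 and 355 CPM in cerebellum, at 195, 143 and 252 CPM in cortex and at 184, 136, 182 and 139 CPM in hippocampus. Both cerebellum samples were above all forebrain samples, and cortex and hippocampus overlapped. Cux2 stood at 105 and 147 CPM in cerebellum, at 195, 305 and 336 CPM in cortex and at 161, 102, 137 and 46.4 CPM in hippocampus. All cortex samples of Cux2 were above all others, while cerebellum and hippocampus overlapped. The means of Cux1 were 324 ± 43.4 (SD, n = 2), 197 ± 54.4 (n = 3) and 160.5 ± 26.2 CPM (n = 4) in cerebellum, cortex and hippocampus, and those of Cux2 were 126 ± 29.8, 279 ± 74.0 and 112 ± 49.7 CPM. Fitted cerebellum over forebrain values were 0.82 (SE 0.54) for Cux1 and -0.59 (SE 0.61) for Cux2. Cortex over hippocampus values were -0.16 (SE 0.63) and 0.79 (SE 0.63). With TMM-adjusted library sizes hippocampus 4 reached 177 CPM of Cux2 against 155 CPM in cortex 1, and these regions overlapped as well.

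Cux1 supplied most of the counts of the pair in cerebellum and fewer in cortex. Its share of the summed counts of Cux1 and Cux2 was 73.7% (95% Wilson interval 58 to 85%) and 70.7% (61.1 to 78.8%) in cerebellum. In cortex it was 50, 32 and 42.9%, with intervals between 15.8 and 75%. In hippocampus it was 53.3, 57.1, 57.1 and 75%. Hippocampus 5, at 75%, has only 4 counts of both genes, and it is the sample through which hippocampus overlapped cerebellum. The share compares the genes within a sample and so does not depend on library size. Both genes lie on chromosome 5 on the minus strand, at 136248135 to 136567490 (Cux1) and 121856366 to 122050102 (Cux2), and their exons cover 20024 and 10082 bases. Per length Cux1 and Cux2 stood at 16.2 and 12.5 CPM per exonic kilobase in cerebellum and at 9.84 and 27.7 in cortex.

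**Figure D2:**
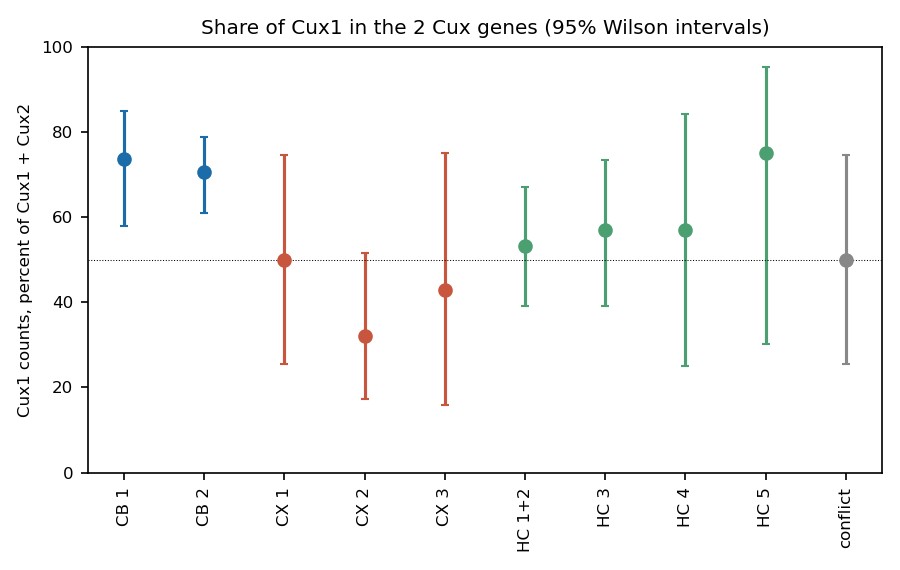
Share of Cux1 in the counts of Cux1 and Cux2 (percent, vertical axis from 0 to 100) in each sample of cerebellum (CB), cortex (CX) and hippocampus (HC) and in the library with conflicting labels. Points are samples and bars 95% Wilson intervals for counting error only; the cerebellum samples are at 73.7 and 70.7% and the cortex samples at 50% or below.

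Between cerebellum and cortex, 6 members had samples that did not overlap (all but Prox1 and Bcl11b), where 29.0% of tested rows did so. Between cerebellum and hippocampus there were 4 (Prox1, Nr3c2, Foxp1 and Cux1), beside 24.2% of rows. Between cortex and hippocampus there were 4 (Zbtb20, Prox1, Foxp1 and Cux2), beside 3.9% of rows. Since these values chose the members, nothing is read from the counts. With TMM-adjusted library sizes there were 6, 5 and 2, beside 31.9, 27.8 and 4.83% of rows, and only Zbtb20 and Prox1 then separated cortex from hippocampus.

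**Figure D3:**
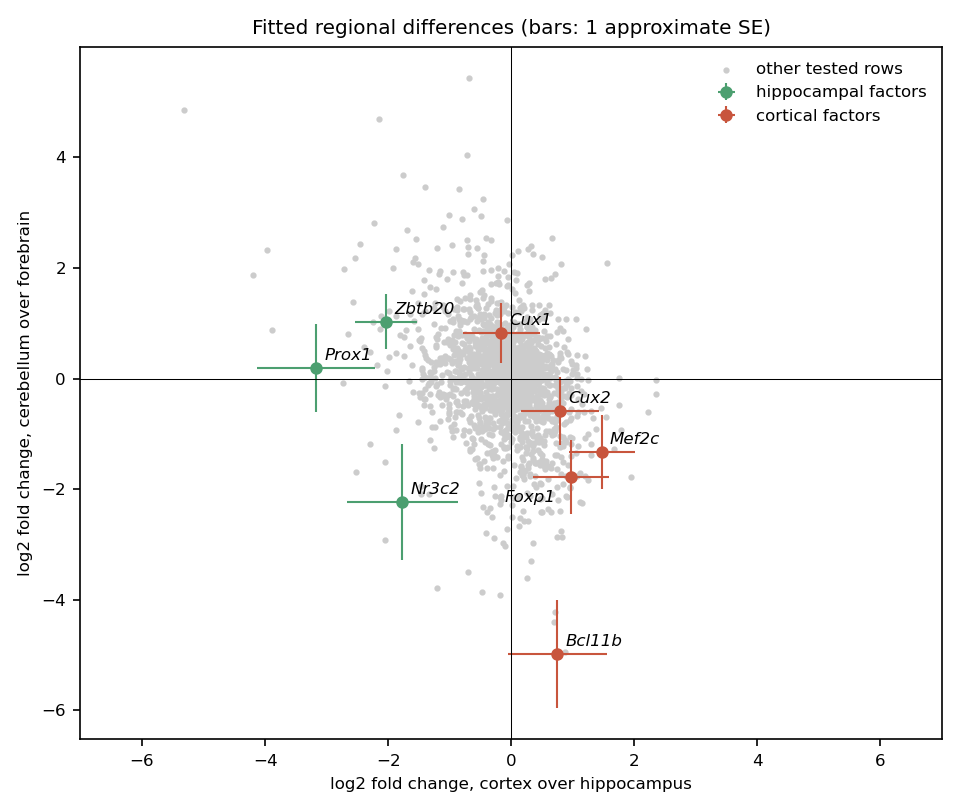
Fitted log2 fold change of cortex over hippocampus (horizontal axis) against that of cerebellum over forebrain (vertical axis) for the 1720 tested rows (grey), the 3 hippocampal factors (green) and the 5 cortical factors (red). Bars are 1 approximate SE; the hippocampal factors lie between -3.17 and -1.77 on the horizontal axis and the cortical factors between -0.16 and 1.47.

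Summed over each group, the 3 hippocampal factors gave 1069 and 958 CPM in cerebellum, 358, 466 and 336 CPM in cortex and 1474, 742, 820.3 and 2462 CPM in hippocampus. The 5 cortical factors gave 513 and 638 CPM in cerebellum, 1139, 2115 and 1093 CPM in cortex and 698, 690.4, 820.3 and 464 CPM in hippocampus. In cortex the cortical factors were the larger sum in all 3 samples. In hippocampus the hippocampal factors were the larger sum in samples 1+2, 3 and 5, and both sums were equal in hippocampus 4, at 18 counts each. Most of the hippocampal sum was Zbtb20.

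**Figure D4:**
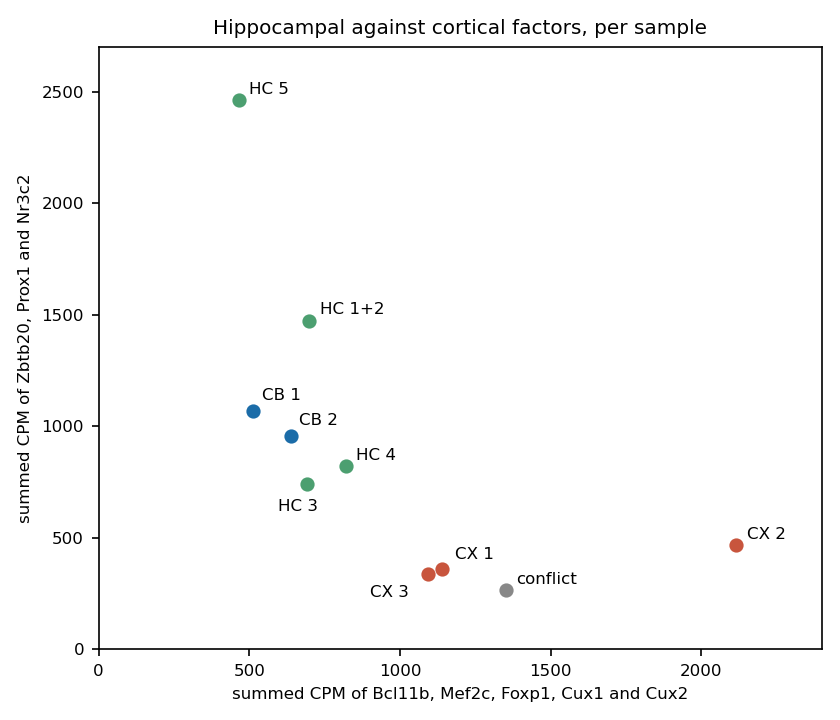
Summed CPM of the 5 cortical factors (horizontal axis) against that of the 3 hippocampal factors (vertical axis), 1 point per sample, for cerebellum (CB), cortex (CX), hippocampus (HC) and the library with conflicting labels (grey). The cortex samples lie at 336 to 466 CPM on the vertical axis and the hippocampus samples at 742 CPM or more.

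Sample titles carry a numeric code whose meaning the labels do not give, and codes that hold both cortex and hippocampus allow a comparison within a code. In the first such code (cortex 1 against hippocampus 1+2), Zbtb20 had 326 against 1128 CPM, Prox1 0 against 177 and Nr3c2 32.6 against 169. In the second (the means of cortex 2 and 3 against hippocampus 4 and 5) they had 254 against 1157, 26.9 against 230.5 and 119.9 against 254 CPM. By library totals the cortical factors had the opposite order in both codes. Mef2c had 293 against 107 and 673 against 206 CPM, and Foxp1 had 293 against 107 and 305 against 161 CPM. Cux2 had 195 against 161 and 320.5 against 91.6 CPM. Bcl11b (163 against 138 and 108 against 22.8 CPM) and Cux1 (195 against 184 and 198 against 161 CPM) had this order too. In the first code Cux2, Bcl11b and Cux1 differed little, and cortex 1 had 6, 5 and 6 counts of them. With TMM-adjusted library sizes their order in that code turned, at 155 against 159, 129 against 136 and 155 against 181 CPM. In the second code Bcl11b rests on 12 and 0 counts in cortex 2 and 3, against 1 and 0 in hippocampus 4 and 5. Cerebellum and hippocampus share the code of cerebellum 1 and that of cerebellum 2. Across them, Cux1 had 293 against 184 and 355 against 136 CPM, and Mef2c had 62.9 against 107 and 50.7 against 51.1 CPM. Zbtb20 (974 against 1128 and 876 against 494 CPM) and Cux2 (105 against 161 and 147 against 102 CPM) changed order between the codes. Prox1 had 94.3 against 177 and 50.7 against 145 CPM, and Nr3c2 had 0 against 169 and 30.4 against 102 CPM. Bcl11b had 10.5 against 138 and 10.1 against 281 CPM, and Foxp1 had 41.9 against 107 and 76.0 against 119 CPM.

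For each member the tested rows with the most similar profile over the 9 samples were taken by Pearson's r of log2 CPM. These r are the highest among all tested rows and come from samples that share region and depth, so they describe the profiles only. Zbtb20 was nearest to Neurl1a (0.95), Paqr8 (0.86) and Ppp1r16b (0.85), and Prox1 to Tmcc1 (0.92), Ddr1 (0.89) and 8030462N17Rik (0.89). Nr3c2 was nearest to Fth1 (0.95), Kcnc2 (0.92) and Cxxc4 (0.90), and Bcl11b to Chn1 (0.94), Adgrb1 (0.90) and Clstn1 (0.90). Mef2c had Erc2 (0.82), Foxp1 (0.82) and Kif21b (0.82) as its neighbours, and Foxp1 had Gria3 (0.91), Nwd2 (0.88) and Ctnna2 (0.85). Gria3 encodes an AMPA receptor subunit, and Kif21b and Clstn1 encode a kinesin and a synaptic cadherin-like protein. Cux1 ran closest to Atp2b3 (0.96), Unc5b (0.96) and Dchs1 (0.95), each higher in cerebellum than in forebrain by mean CPM, and Cux2 to Fhod3 (0.90), Wdr82 (0.88) and Mark4 (0.85). Among the members themselves, Zbtb20 and Prox1 (0.81) and Mef2c and Foxp1 (0.82) had the highest r, and Zbtb20 had its lowest with Cux2 (-0.78) and Foxp1 (-0.77).

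No other tested factor listed for cortical or hippocampal neurons was called, and 1 cerebellar factor was. The lists share genes and are not separate results. Nfia, Nfib and Nfix were tested in the hippocampal and the cerebellar list, and Rfx3 in the cortical and the hippocampal list. Of 35 other cortical projection neuron factors, 9 were tested and 0 were called by edgeR between cerebellum and forebrain (3 at an unadjusted p under 0.05, 0 by DESeq2), with a median log2 fold change of -0.58 (0.00232 over all tested rows). Pou3f3 was at -1.64 (SE 0.78, adjusted p = 0.228, edgeR) and Tshz2 at -1.35 (SE 0.67, adjusted p = 0.253, edgeR). Of 27 other hippocampal factors, 7 were tested and 0 were called by edgeR (2 at an unadjusted p under 0.05, 0 by DESeq2), with a median of 0.30. In the cortex over hippocampus comparison these lists had 0 calls each by edgeR and by DESeq2, with 0 and 2 genes at an unadjusted p under 0.05. Their medians were -0.21 and -0.51, against -0.04 over all rows. Of 36 cerebellar factors, 5 were tested and 1 was called: Zic1, a zinc finger factor of granule cells, was higher in cerebellum than in forebrain by 2.30 (SE 0.61, adjusted p = 0.00511, edgeR), at 439 ± 146 CPM (SD, n = 2) against 67.9 ± 47.1 CPM (n = 7). The Zic1 call held in 9 of 15 alternatives (adjusted p from 5.19e-05 to 1.0), and DESeq2 called 0 of the 5. Without cerebellum 1, cerebellum 2, cortex 1 or hippocampus 1+2 its log2 fold change was 1.36, 3.37, 1.83 and 1.94 and no longer past the threshold.

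Few relatives of the members had enough counts to be tested. Of 23 relatives, 4 passed the filter and 0 were called in any comparison by edgeR or DESeq2, with 0 at an unadjusted p under 0.05. Zbtb18 and Mef2d were already counted among the cortical factors above, and Nr3c1 among the hippocampal factors. Zbtb18 had 373 ± 9.41, 373 ± 418 and 434 ± 407 CPM in cerebellum, cortex and hippocampus, and a log2 fold change of cerebellum over forebrain of 0.29 (SE 0.49). Nr3c1 had 0.30 (SE 0.56), Zbtb4 -0.14 (SE 0.56) and Mef2d, the activity-dependent relative of Mef2c, -0.07 (SE 0.64). The adjusted p of these 4 lay between 0.885 and 0.989 (edgeR), which does not show that they are equal between the regions.

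Several members are also known from cells other than projection neurons, so marker lists of those cells were summed per sample. Markers of forebrain excitatory neurons had 1662 to 1791 CPM in cerebellum, 2774 to 5143 in cortex and 2917 to 5527 in hippocampus, with 5 of 10 tested lower in cerebellum than in forebrain (edgeR, and 5 with DESeq2) and Cck at 0 in cerebellum. Granule cell markers had 6997 to 8685 CPM in cerebellum and 840.5 to 1492 in forebrain, and 5 of 7 tested were higher in cerebellum with edgeR and 3 with DESeq2. Of the 7, Slc17a7 was also tested among the markers of forebrain excitatory neurons, so these sums share a gene and are not separate. The 5 called include Zic1, counted above as a cerebellar factor. Cux1 was likewise highest in cerebellum, and the part of granule cells in its level and in that of Zbtb20 was not tested. Purkinje cell markers had 3866 to 4175 CPM in cerebellum and 818 to 1269.5 in forebrain, with 3 of 5 tested higher in cerebellum with edgeR and 1 with DESeq2. Rora was tested in this list and among the cerebellar factors. Hippocampal neuron markers other than factors had 504 to 879 CPM in cortex, 929 to 1039.9 in hippocampus and 849 to 922 in cerebellum. Of 3 tested, 1 was called, against the name of the list: Il16 was higher in cerebellum than in forebrain, by 4.7 on the log2 scale (adjusted p = 3.5e-05, edgeR, and 1 call with DESeq2), and than in hippocampus, by 3.62. Astrocyte markers, of interest for Zbtb20, ran from 2640 to 2829 CPM in cerebellum, from 1513 to 6022 in cortex and from 2917 to 6781 in hippocampus, with Gpc5 at 0 in cortex. Of 8 tested, 2 (Slc1a2 and Glul) were lower in cerebellum than in forebrain (edgeR, and 2 with DESeq2), whereas Zbtb20 in cerebellum was at the level of hippocampus. Striatal markers, of interest for Bcl11b and Foxp1, ran from 950.1 to 1261 CPM in cortex, 638 to 929 in hippocampus and 800.5 to 859 in cerebellum, with 0 of 2 tested called by edgeR or DESeq2 and 0 at an unadjusted p under 0.05. Tac1 was at 0 in cerebellum and Ikzf1 in cortex. Interneuron markers, of interest for Prox1, ran from 1107 to 1434 CPM in cortex, 1094 to 1637 in hippocampus and 1613 to 1616 in cerebellum, with Vip, Pvalb, Dlx5 and Dlx6 at 0 in cortex and Npy, Dlx5 and Dlx6 at 0 in cerebellum. Of 4 tested, Reln was higher and Nxph1 lower in cerebellum than in forebrain with edgeR, and 1 was called with DESeq2. Microglia and endothelial markers, of interest for Mef2c, ran from 97.7 to 336 CPM in cortex, 161 to 367 in hippocampus and 220 to 279 in cerebellum, with 0 of 16 passing the filter, and with Aif1, C1qa, C1qb and Cldn5 at 0 in cortex and Pecam1 at 0 in hippocampus. Their part in the levels of the members was not tested.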

How the data were processed

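Fragments bound by FMRP were counted by the authors in 11 libraries of mouse brain, and the deposited table holds raw counts per gene symbol (whole numbers). The submitters' processing notes name Bowtie 0.12.7, Picard and the build mm10. The counter, annotation, strand setting, duplicate removal and treatment of reads with several hits have no entry in the labels (not given in the sources used here), so fragments of overlapping, antisense or closely related genes cannot be told apart. Columns were matched to samples by title, and 0 sample columns were left unused.

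The members and gene lists were chosen with earlier results of these data known. CPM were computed from library totals, where 1 count is 5.07 CPM in the deepest and 84.0 CPM in the shallowest sample. Poisson, Wilson and count-ratio intervals are at the 95% level, and a count of 0 allows up to 3 counts; both cover counting error only, because PCR copies are not independent molecules. Hippocampus 1 and 2 were summed (over 1873 rows their chi-square was 1.03 per degree of freedom, p = 0.192, while the other 13 pairs had 1.49 to 8.62). The main test was edgeR 4.0.16 in R 4.3.3: quasi-likelihood test on counts, TMM factors, filterByExpr by region (minimum count 10), the title code as a block, 4 residual degrees of freedom, Benjamini-Hochberg threshold 0.05. The fit was tested on simulated counts drawn with its own dispersion, without a title-code effect or samples that stood apart. That test cannot show how such features affect the calls here. SEs are approximate, taken from the log2 fold change and the F statistic. Alternatives were DESeq2 1.42.0, library totals without TMM, no filter, no block, 10 separate libraries, each sample left out, and cortex 3, hippocampus 3 and hippocampus 4 left out; for region means, the last was added after seeing the data. Deviations from the region means had a median r of 0.12 for 8 pairs with a shared title code (-0.03 to 0.34) and of -0.02 for 18 other pairs, so the codes do not pair the samples clearly. Gene models came from GENCODE M21 (GRCm38), with 1 annotated gene for 1669 of 1720 tested rows. Python 3.11.15 with pandas 2.3.3 and scipy 1.17.1 was used for the rest.

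The genes named are the 8 members, listed factors that passed the threshold, relatives of the members that passed the filter, and for each member the 3 rows with the highest r. Pou3f3, Tshz2, Slc1a2, Glul, Reln, Nxph1, Il16 and markers at 0 were named after their values were seen. Nfia, Nfib, Nfix, Rfx3, Slc17a7 and Rora were named because lists share them.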

Additional observations from a re-analysis of the deposited data

How the results depend on the processing

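For cerebellum against forebrain the 132 calls became 87 with DESeq2, 54 with library totals alone, 1 with no filter on low counts and 215 without cortex 3, hippocampus 3 and hippocampus 4. For cerebellum against cortex the 79 calls became 43, 16, 0 and 142, and for cerebellum against hippocampus the 110 became 70, 45, 0 and 185 in the same order, and 187 with 10 separate libraries. For cortex against hippocampus the 0 calls became 1 with DESeq2, 1 with 10 separate libraries and 3 without those 3 samples. Leaving out each sample in turn gave 2 to 176, 0 to 117, 5 to 191 and 0 to 1 calls for the 4 comparisons. The first fell to 2 without cerebellum 1, 17 without cerebellum 2, 15 without cortex 1 and 81 without hippocampus 1+2. The second fell to 0, 12 and 2 without cerebellum 1, cerebellum 2 and cortex 1, to 28 without cortex 2 or hippocampus 5 and to 18 without hippocampus 4. The third fell to 10, 5, 58, 42, 70 and 70 without cerebellum 1, cerebellum 2, cortex 1, hippocampus 1+2, hippocampus 3 and hippocampus 5, and was 191 without cortex 3. The 1 call of the fourth came without hippocampus 3. Leaving out a sample also changed how many rows passed the filter; the cause was otherwise not tested. With library totals alone 37 of the 54 calls were higher in cerebellum, against 67 of 132, and the median of all rows moved to 0.12 (cerebellum over forebrain) and 0.24 (cortex over hippocampus).

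With no replicate block there were 156, 114, 83 and 0 calls in the 4 comparisons, Mef2c was at -2.15 instead of -1.33 and Bcl11b at -3.73 for cerebellum over forebrain, and Bcl11b turned from 0.75 to -0.54 for cortex over hippocampus. Prox1 was at -0.03 instead of 0.18 for cerebellum over forebrain.

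On the log2 scale Zbtb20 for cortex over hippocampus lay between -2.24 and -1.52 when each sample was left out, the latter without hippocampus 5, and Prox1 between -6.97 and -2.44. Foxp1 for cerebellum over forebrain was -1.38 with no filter on low counts and between -1.89 and -1.55 with each sample left out. Cux1 for cortex over hippocampus had the same sign as in the main fit in 11 of 15 alternatives, and Bcl11b in 11 of 13 (2.63 without cortex 1, -0.31 without cortex 2). Cux2 for cortex over hippocampus was 1.64 without cortex 1. Members absent from some alternatives failed the filter in them. Region means of CPM also moved: Mef2c in cortex was 273 CPM without cortex 2 (546 with it), Bcl11b in hippocampus 61.2 CPM without hippocampus 3 (116 with it) and Zbtb20 in hippocampus 1493 CPM without hippocampus 3 and 4 (984 with them). Without cortex 3, hippocampus 3 and hippocampus 4, the means in cortex and hippocampus were 26.9 and 228 CPM for Prox1 and 693 and 123 CPM for Mef2c. They were 326 and 123 CPM for Foxp1, 169 and 162 CPM for Cux1, and 250 and 104 CPM for Cux2. Depth limits Prox1 in cortex (0, 3 and 0 counts) and Bcl11b (1 and 2) and Nr3c2 (0 and 6) in cerebellum.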

Other observations

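The library whose title names cortex and whose tissue label names hippocampus had 30344 counts and entered no comparison. Its CPM were 132 for Zbtb20, 65.9 for Prox1 and for Nr3c2, 297 for Bcl11b, 461 for Mef2c and 198 for each of Foxp1, Cux1 and Cux2. These rest on 4, 2, 2, 9, 14, 6, 6 and 6 counts. The hippocampal factors summed to 264 CPM and the cortical factors to 1351 CPM, and Cux1 made up 50% of the Cux1 and Cux2 counts (95% Wilson interval 25.4 to 74.6%). The 8 genes together took 0.161% of its counts.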
